A study of Mus musculus with 4 samples.

Results

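The MHC class II genes and the genes that load peptide onto their products were read in 4 sorted populations of mouse CD4+ T cells. The set was chosen by name and holds 9 genes, H2-Aa, H2-Ab1, H2-Eb1, Cd74, H2-DMa, H2-DMb2, H2-Oa, H2-Ob and Ciita, of the 18193 genes that had a probe set assigned to exactly 1 gene. Together they had 19 such probe sets. A gene was called measured when a probe set of it reached an intensity of 32.5 on at least 1 array, the 60th percentile of all values. This held for 9622 genes in all and for 8 of the 9, with Ciita left under it. H2-DMb2 reached it on the CD25+ Foxp3- array alone, and the other 7 on all 4 arrays.

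The cells came from Foxp3-GFP knock-in mice, in which green fluorescent protein marks the cells that transcribe Foxp3, the transcription factor of regulatory T cells. All groups shared this allele, the B6/129 F2 background, the male sex, an age of 5 to 8 weeks and the source, pooled spleen and lymph node cells of 25 mice. CD4+ cells that stayed after depletion with antibodies to CD8, B220, CD11b, NK1.1 and DX5 were sorted on GFP and on CD25, which forms part of the receptor for IL-2. This gave Foxp3+ cells with high CD25 (CD25hi) or low CD25 (CD25lo) and Foxp3- cells with CD25 (CD25+) or without it (CD25-), each population read on 1 array after 2 cycles of RNA amplification. With 1 array a group there were no replicates, so values are given without error, no test was made, and a difference was judged by its size. The arrays lay on 1 scale, with median intensities between 15.03 and 15.6, and the number of arrays limits the precision. Foxp3 read 1308 in CD25hi and 1117 in CD25lo Foxp3+ cells, compared with 16.8 in CD25+ and 17.6 in CD25- Foxp3- cells, which fits the sort on GFP. Il2ra, the gene of CD25, read 1562 in CD25hi and 288 in CD25lo Foxp3+ cells, compared with 283 in CD25+ and 22.3 in CD25- Foxp3- cells. By this reading the CD25+ Foxp3- array lay beside the CD25lo Foxp3+ array, and no Foxp3- array reached the level of CD25hi Foxp3+ cells. The T cell label fits as well, since all 14 measured T cell identity genes, Cd3e and Cd4 among them, reached the intensity of 32.5 on every array.

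MHC class II molecules are pairs of an alpha and a beta chain that show peptides from taken-up proteins to CD4+ T cells. They are made by B cells, dendritic cells, macrophages and thymic epithelium, and in the mouse T cells are usually regarded as making little or none. New pairs are held by the invariant chain (Cd74), whose last fragment is exchanged for a peptide by the DM molecule, and DO restrains DM. The factor CIITA switches these genes on through a shared promoter module that is bound by RFX, CREB and NF-Y proteins. The H-2b haplotype of both C57BL/6 and 129 mice makes no E alpha chain, so H2-Eb1 has no partner there.

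The promoter module can be seen in the sequences just before the gene starts, which are shown because H2-Aa, H2-Eb1, H2-Oa and H2-Ob carry the same arrangement although their readings across the arrays differed. Promoters of 6 of the 9 genes were matched in the RefSeq table of build GRCm38.p6. Capitals mark GCAAC, the core of the X box, and GATTGG, which holds the inverted CCAAT of the Y box. The 150 bases before the start lie at chr17:34287824-34287973 (minus strand) for H2-Aa, chr17:34305717-34305866 (plus strand) for H2-Eb1, chr17:34092229-34092378 (plus strand) for H2-Oa, chr17:34238755-34238904 (plus strand) for H2-Ob and chr17:34145099-34145248 (plus strand) for H2-DMb2, each read 5′ to 3′ in the direction of the gene.
H2-Aa: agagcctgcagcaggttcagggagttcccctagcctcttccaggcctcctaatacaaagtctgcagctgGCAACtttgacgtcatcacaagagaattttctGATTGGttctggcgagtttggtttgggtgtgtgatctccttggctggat
H2-Eb1: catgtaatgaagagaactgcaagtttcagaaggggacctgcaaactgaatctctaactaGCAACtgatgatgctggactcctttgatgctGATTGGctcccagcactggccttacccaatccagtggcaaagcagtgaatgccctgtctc
H2-Oa: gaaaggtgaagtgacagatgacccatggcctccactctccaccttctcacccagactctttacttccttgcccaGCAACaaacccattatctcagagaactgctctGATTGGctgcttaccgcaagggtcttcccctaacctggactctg
H2-Ob: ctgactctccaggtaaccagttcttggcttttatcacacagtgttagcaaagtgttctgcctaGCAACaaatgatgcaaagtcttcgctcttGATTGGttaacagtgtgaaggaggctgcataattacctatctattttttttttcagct
H2-DMb2: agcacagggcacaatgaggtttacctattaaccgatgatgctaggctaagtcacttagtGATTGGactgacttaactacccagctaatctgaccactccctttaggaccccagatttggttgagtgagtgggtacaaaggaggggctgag

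In H2-Aa and H2-Oa 27 bases lay between the 2 motifs, in H2-Eb1 26 and in H2-Ob 24. H2-DMb2 had GATTGG without GCAAC. The motifs were chosen after these promoters had been read. GCAAC followed on the same strand by GATTGG at a distance of 15 to 30 bases was found, on either strand of the 250 bases before the start, in 0.262% of all 32851 promoters in the table. Without regard to the other, GCAAC was found in 29.9% and GATTGG in 14.6%. Both H2-DMa starts in the table lacked the pair in this window. A match describes the letters and is not a measured site.

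The classical chains, which form the molecule that holds the peptide, were lower in both Foxp3+ populations than in both Foxp3- populations. H2-Aa, the alpha chain of I-A, read 132 in CD25hi and 375 in CD25lo Foxp3+ cells, compared with 1877 in CD25+ and 1098 in CD25- Foxp3- cells. H2-Ab1, its beta chain, read 48.3 and 129 in the same Foxp3+ populations, against 548 in CD25+ and 352 in CD25- Foxp3- cells. H2-Eb1, the beta chain of I-E, read 98.5 and 219.6 in CD25hi and CD25lo Foxp3+ cells, against 854 in CD25+ and 490.4 in CD25- Foxp3- cells. In all 3 genes the order was the same, with CD25hi Foxp3+ lowest, CD25lo Foxp3+ next, CD25- Foxp3- above it and CD25+ Foxp3- highest, and no array of one Foxp3 state overlapped the other.

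**Figure D1:**
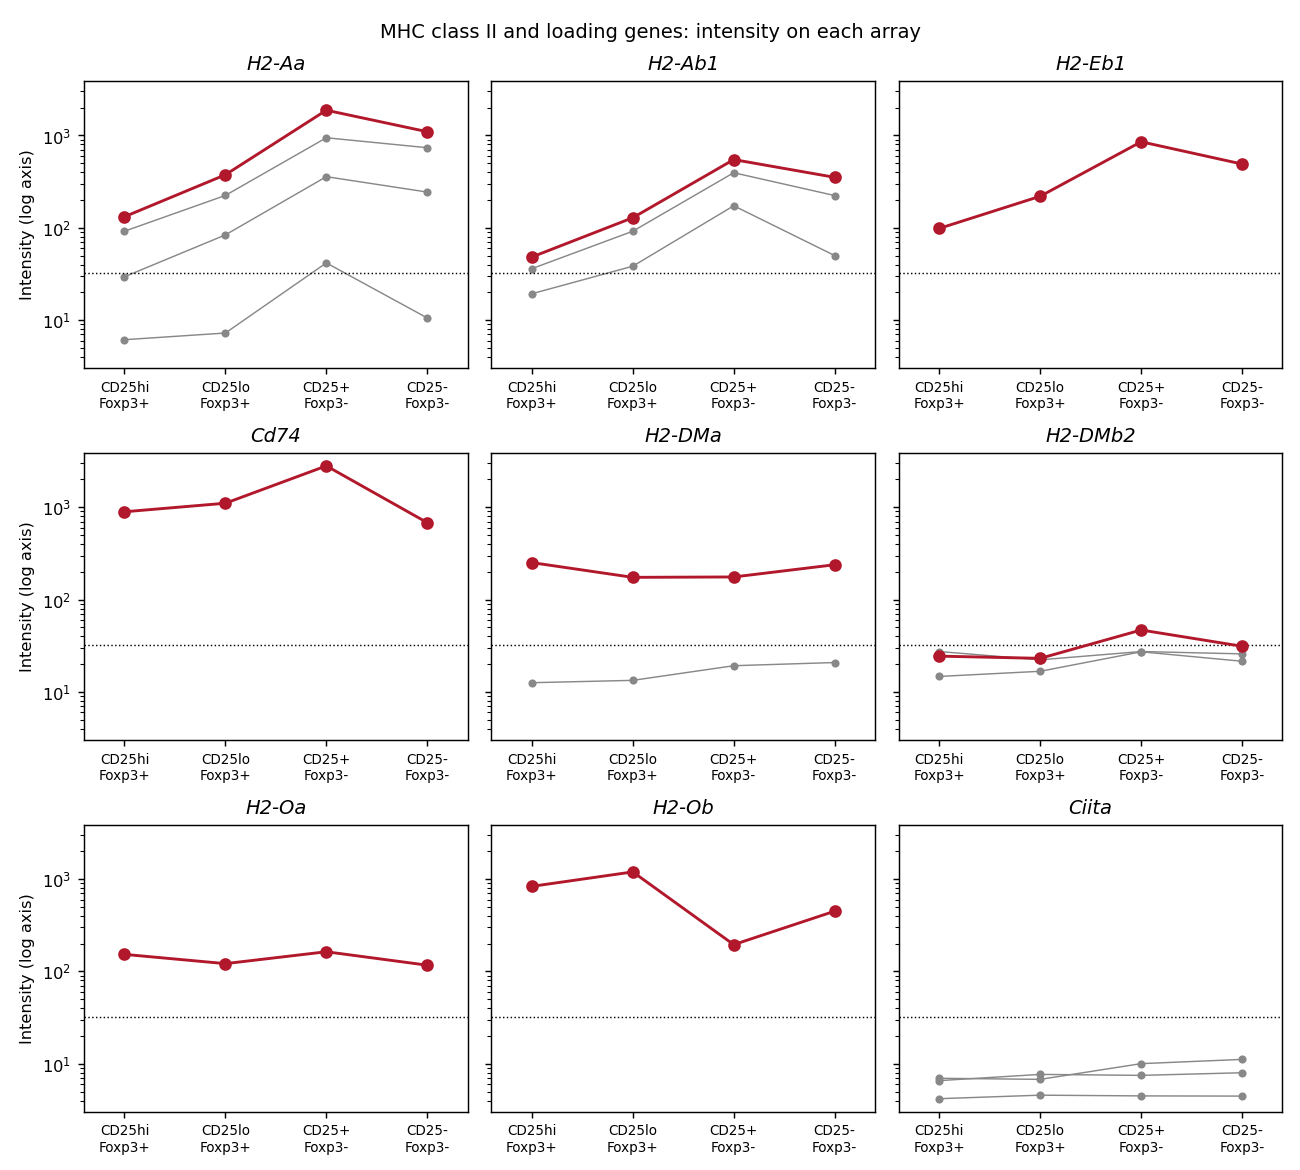
Intensity (log axis) of every probe set of the 9 genes on the 4 arrays, from left to right CD25hi and CD25lo Foxp3+ cells, then CD25+ and CD25- Foxp3- cells. Lines join the values of 1 probe set, red marks the probe set used for the gene, grey the others, and the dotted line is the intensity of 32.5. H2-Aa, H2-Ab1 and H2-Eb1 are lowest in CD25hi Foxp3+ cells and highest in CD25+ Foxp3- cells, H2-Ob is highest in CD25lo Foxp3+ cells and lowest in CD25+ Foxp3- cells, and Ciita stays under the line.

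A gene was counted as lower with Foxp3 when the higher of the Foxp3+ arrays lay at least 1.5-fold under the lower of the Foxp3- arrays. The 3 classical chains passed this rule, as did 1.93% of all measured genes, and none of the other 6 genes of the set did. The gap was 2.92-fold for H2-Aa, 2.74-fold for H2-Ab1 and 2.23-fold for H2-Eb1, so the 3 also passed at 2-fold. In the opposite direction 1 gene of the set passed, H2-Ob, against 2.8% of all measured genes. In such bulk samples fewer cells that carry a transcript and less of it per cell cannot be told apart.

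The size of the difference depended on which arrays were paired. Between CD25lo Foxp3+ and CD25+ Foxp3- cells, the pair with nearly equal Il2ra, H2-Aa was 5.00-fold, H2-Ab1 4.26-fold and H2-Eb1 3.89-fold lower with Foxp3. In CD25hi Foxp3+ cells, set against CD25+ Foxp3- cells, H2-Aa was 14.2-fold, H2-Ab1 11.3-fold and H2-Eb1 8.67-fold lower. Of all measured genes only 24 had a lower log2 difference than H2-Aa in this comparison, 37 a lower one than H2-Ab1 and 54 a lower one than H2-Eb1. In CD25lo Foxp3+ against CD25- Foxp3- cells the same genes were 2.92-fold, 2.74-fold and 2.23-fold lower. Il2ra was unequal in both of these pairs, so they are not contrasts at a shared CD25 level. Within the Foxp3+ cells all 3 were at least 2-fold lower in CD25hi than in CD25lo cells, by 2.85-fold for H2-Aa, 2.66-fold for H2-Ab1 and 2.23-fold for H2-Eb1, a size reached downward by 2.5% of measured genes. Within the Foxp3- cells they ran the other way and had 1.71-fold, 1.56-fold and 1.74-fold more signal with CD25 than without it, which is short of 2-fold.

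Separate probe sets of the same chain gave the same order of arrays. All 4 of H2-Aa and all 3 of H2-Ab1 reached 32.5 on at least 1 array, and each was highest in CD25+ Foxp3- cells. The full order held in all of them except the dimmest H2-Aa probe set, where both Foxp3+ arrays lay under the floor of 10.1, below which values have no order. By the 1.5-fold rule 6 of the 8 probe sets of the classical chains were lower with Foxp3, against 1.7% of all 17003 probe sets that reached the filter. The exceptions were the dimmest of each gene. That of H2-Aa read 6.15 and 7.26 in CD25hi and CD25lo Foxp3+ cells, against 41.7 in CD25+ and 10.6 in CD25- Foxp3- cells. That of H2-Ab1 read 19.3 and 38.4 in CD25hi and CD25lo Foxp3+ cells, against 173 in CD25+ and 50.1 in CD25- Foxp3- cells. All H2-Aa probe sets end in _x_at or _s_at, the marks of probes that may also bind related transcripts, whereas H2-Eb1 was read by a probe set without such a mark.

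Cd74, the invariant chain that occupies the peptide groove until the endosome, did not follow the classical chains. It read 894 in CD25hi and 1106 in CD25lo Foxp3+ cells, compared with 2806 in CD25+ and 681 in CD25- Foxp3- cells. The Foxp3+ arrays thus lay between the Foxp3- arrays, and CD25+ Foxp3- cells stood apart. They were 4.12-fold above CD25- Foxp3- cells, where 2-fold or more upward was reached by 12.1% of measured genes and 272 genes had a larger difference than Cd74. CD25hi Foxp3+ cells were 3.14-fold and CD25lo Foxp3+ cells 2.54-fold below CD25+ Foxp3- cells. Against CD25- Foxp3- cells they were 1.31-fold and 1.62-fold higher.

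**Figure D2:**
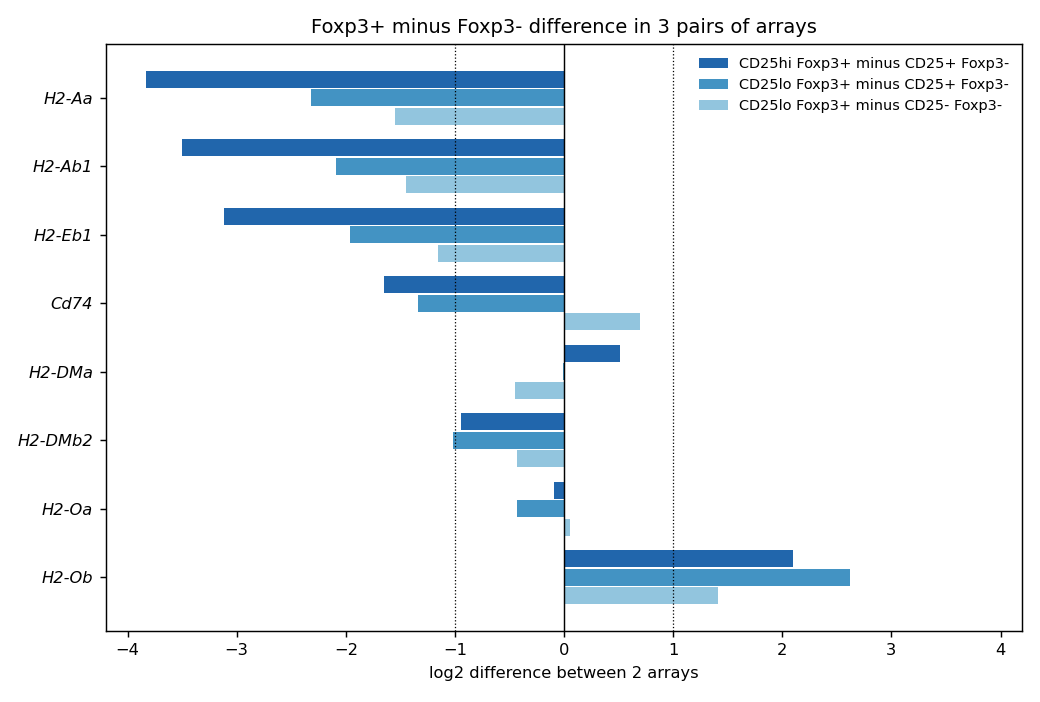
log2 difference of intensity for the 8 measured genes, CD25hi Foxp3+ minus CD25+ Foxp3- cells (dark), CD25lo Foxp3+ minus CD25+ Foxp3- cells (middle, the pair with nearly equal Il2ra) and CD25lo Foxp3+ minus CD25- Foxp3- cells (light), with dotted lines at 2-fold. The classical chains are lower with Foxp3 in all 3 pairs, H2-Ob is higher in all 3, and Cd74 has differences of -1.65, -1.34 and 0.70.

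The peptide editors, DM and DO, went separate ways. H2-Ob, the beta chain of DO, read 834 in CD25hi and 1195 in CD25lo Foxp3+ cells, compared with 195 in CD25+ and 449 in CD25- Foxp3- cells. Both Foxp3+ arrays lay above both Foxp3- arrays, with CD25+ Foxp3- lowest, the array on which the classical chains were highest. H2-Ob was 4.28-fold higher in CD25hi Foxp3+ and 6.13-fold higher in CD25lo Foxp3+ cells than in CD25+ Foxp3- cells. Only 25 measured genes had a larger difference in CD25lo Foxp3+ over CD25+ Foxp3- cells, a comparison in which 5.17% were at least 2-fold higher. Within the Foxp3- cells H2-Ob was 2.3-fold lower in CD25+ than in CD25- cells, where 6.43% of measured genes were at least 2-fold lower.

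H2-Oa, the alpha chain that pairs with H2-Ob in DO, stayed within a narrow range. It read 153 and 121 in CD25hi and CD25lo Foxp3+ cells, against 163 in CD25+ and 117 in CD25- Foxp3- cells. H2-DMa, the alpha chain of DM, read 252 and 174 in CD25hi and CD25lo Foxp3+ cells, against 176 in CD25+ and 239 in CD25- Foxp3- cells. For both genes the Foxp3+ and Foxp3- arrays overlapped, and no pair of arrays was more than 1.44-fold apart. A second H2-DMa probe set read between 12.6 and 20.8 and stayed under the filter.

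H2-DMb2, a beta chain of DM, was close to background. Its probe set with the highest mean read 24.4 and 23.1 in CD25hi and CD25lo Foxp3+ cells, against 46.9 in CD25+ and 31.3 in CD25- Foxp3- cells. The other 2 probe sets read between 14.7 and 27.4 on every array. Ciita was at or near the floor throughout. Its 3 probe sets read between 4.19 and 11.2, so the transactivator was under the filter in every population and no fold is given for it. By role, the 8 measured genes thus had all 3 classical chains lower with Foxp3, H2-Ob higher, and Cd74, H2-DMa, H2-DMb2 and H2-Oa neither.

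Counted between single arrays at 2-fold, the genes of the set fell out as follows, beside the share of all measured genes. In CD25hi Foxp3+ against CD25- Foxp3- cells 3 were lower and 0 higher, beside 3.74% and 7.09%. In CD25lo Foxp3+ against CD25- Foxp3- cells 3 were lower and 1 higher, beside 6.88% and 9.09%. The genes lower in both were the 3 classical chains. In CD25hi Foxp3+ against CD25+ Foxp3- cells 4 were lower and 1 higher, beside 6.84% and 4.82%, and in CD25lo Foxp3+ against CD25+ Foxp3- cells 5 and 1, beside 9.04% and 5.17%. Cd74 joined the classical chains in both of these and H2-DMb2 in the second. In CD25+ against CD25- Foxp3- cells H2-Ob alone was lower and Cd74 alone higher, beside 6.43% and 12.1%. Single genes in a set of this size are near these shares. Within the Foxp3+ cells 3 were lower and 0 higher with high CD25, beside 2.5% and 3.21%.

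As a description, the median log2 difference of the 8 measured genes was -1.30 in CD25hi Foxp3+ against CD25+ Foxp3- cells and -1.18 in CD25lo Foxp3+ against CD25+ Foxp3- cells, where the medians over all measured genes were 0.03 and -0.01. It was -0.14 in CD25hi Foxp3+ and -0.44 in CD25lo Foxp3+ against CD25- Foxp3- cells, beside 0.02 and -0.05 over all genes. It was 0.61 in CD25+ against CD25- Foxp3- cells and -0.41 in CD25hi against CD25lo Foxp3+ cells, beside -0.01 and 0.05 over all genes. The comparisons with the same array share it and are not independent of each other.

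Of 19 other listed genes of the class II pathway 16 were measured, and by the 1.5-fold rule none was lower and none higher in both Foxp3+ arrays. The shares over all measured genes were 1.93% and 2.8%, so none among 16 is near them. Rfx5, a subunit of the RFX complex that binds the X box, read 582 and 509.6 in CD25hi and CD25lo Foxp3+ cells, against 365 in CD25+ and 314 in CD25- Foxp3- cells, a gap of 1.40-fold. Rfxank, another RFX subunit, read 299 and 269 in the Foxp3+ cells, against 122 in CD25+ and 254 in CD25- Foxp3- cells. Rfxap, the remaining one, read 455 and 416 in the Foxp3+ cells, against 330.3 in CD25+ and 545 in CD25- Foxp3- cells. For Rfxank and Rfxap CD25+ Foxp3- cells, highest for the classical chains, were lowest.

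H2-Ea, a transcribed pseudogene in the RefSeq table, read 39.4 and 68.0 in CD25hi and CD25lo Foxp3+ cells, against 48.0 in CD25+ and 68.9 in CD25- Foxp3- cells. H2-Eb2 stayed between 17.6 and 27.0, under the filter. Of the proteases, 3 were chosen for naming after their values were seen. Lgmn, an endosomal protease that cuts the invariant chain, read 236 and 489.7 in CD25hi and CD25lo Foxp3+ cells, against 81.9 in CD25+ and 206 in CD25- Foxp3- cells. Ctsh, a cathepsin, read 17.5 and 28.8 in the Foxp3+ cells, against 32.6 in CD25+ and 74.3 in CD25- Foxp3- cells. Ctss, the cathepsin that trims the invariant chain in B cells and dendritic cells, was high in all, at 7294 and 6864 in CD25hi and CD25lo Foxp3+ cells, against 5008 in CD25+ and 5889 in CD25- Foxp3- cells.

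Class I genes, which serve peptide display to CD8 T cells in every cell, were read as well. Of 16 measured class I and loading genes none passed the 1.5-fold rule in either direction. Over all measured genes 1.93% were lower and 2.8% higher, so none among 16 is near the share. B2m, the shared light chain of class I, read 17576 and 20622 in CD25hi and CD25lo Foxp3+ cells, against 17588 in CD25+ and 16691 in CD25- Foxp3- cells. Among 18 measured genes of the interferon gamma response, the cytokine signal that induces Ciita in many cells, none was lower and 3 were higher with Foxp3, namely Gbp3, Gbp7 and Iigp1. Ifng itself read 139.6 and 366 in CD25hi and CD25lo Foxp3+ cells, against 1146 in CD25+ and 288 in CD25- Foxp3- cells. Its receptor chain Ifngr1 read 792 and 1203 in the Foxp3+ cells, against 267 in CD25+ and 834 in CD25- Foxp3- cells.

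**Figure D3:**
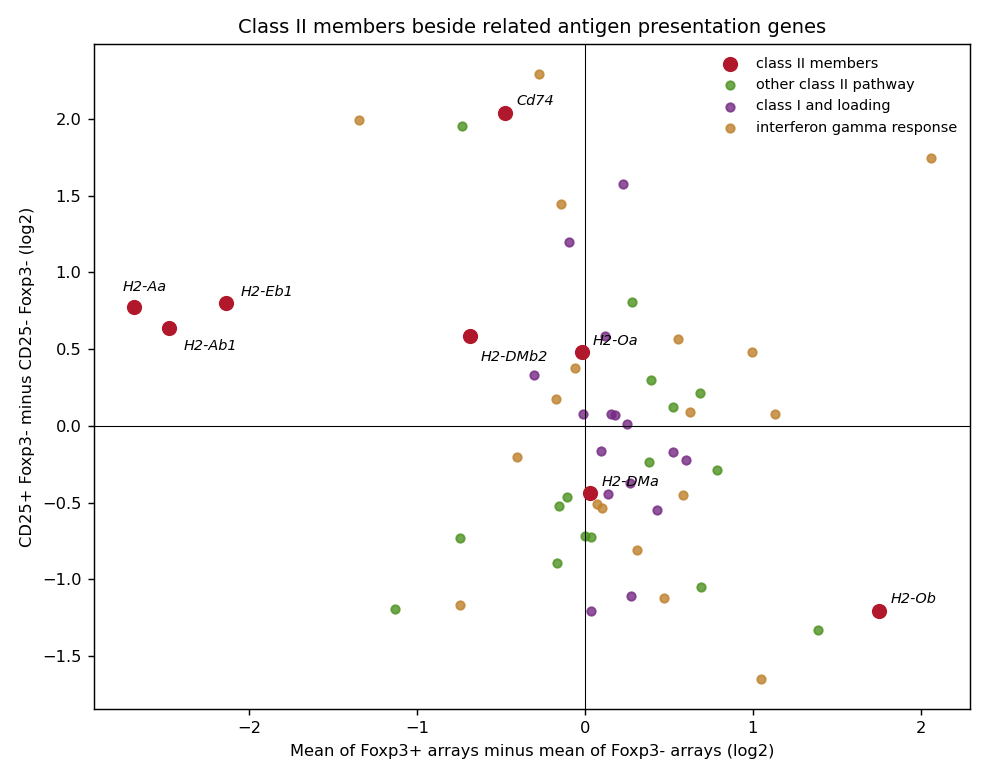
Each point is 1 measured gene, with the mean log2 intensity of the Foxp3+ arrays minus that of the Foxp3- arrays on the horizontal axis and the log2 difference of CD25+ minus CD25- Foxp3- cells on the vertical axis. H2-Aa, H2-Ab1 and H2-Eb1 lie at -2.69, -2.48 and -2.14 on the horizontal axis, to the left of every plotted gene of the other class II pathway, class I and interferon gamma lists, and H2-Ob lies at 1.75 on the right.

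Cells that make class II in quantity could be present among sorted T cells, so markers of such cells were read on the same arrays. The depletion with antibodies to B220 and CD11b and the CD4 gate were aimed at B cells and myeloid cells, and how complete they were was not tested. Cd8a, a gene of CD8, another target of the depletion, read 101 and 83.7 in CD25hi and CD25lo Foxp3+ cells. It read 185 in CD25+ and 351 in CD25- Foxp3- cells. Of 23 listed B cell markers 21 had a probe set with 1 gene, 10 were measured and 11 stayed under the filter on every array. Cd79a, a chain of the B cell receptor complex, read between 7.59 and 10.3, and Pax5, the factor that fixes B cell identity, between 4.48 and 6.26. Both are thus at or near the floor, like Ebf1, another B cell factor, between 9.86 and 13.5. By the 1.5-fold rule 3 of the 10 measured markers were lower with Foxp3 and none higher. Ms4a1 and Ly86 reached the filter on the Foxp3- arrays alone, so they could pass only in this direction, and of the 6 markers that reached it on every array 1 was lower. The 3 lower markers were Ms4a1 (CD20), Ly86 (MD-1, a partner of RP105) and Pou2af1, a coactivator of octamer promoters. Ms4a1 read 15.9 and 24.7 in CD25hi and CD25lo Foxp3+ cells, against 66.7 in CD25+ and 145 in CD25- Foxp3- cells. Pou2af1 read 43.2 and 154 in the Foxp3+ cells, against 928 in CD25+ and 400.1 in CD25- Foxp3- cells. Cd79b read 97.2 and 118 in the Foxp3+ cells, above 58.4 in CD25+ and 69.2 in CD25- Foxp3- cells.

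Summed over the 21 B cell markers, with values under the floor set to it, the intensity was 10142 and 11014 in CD25hi and CD25lo Foxp3+ cells, against 12480 in CD25+ and 16222 in CD25- Foxp3- cells. Without Ighm, which made up most of it, the sum was 1258 and 1108 in the Foxp3+ cells, against 2427 in CD25+ and 2031 in CD25- Foxp3- cells. Pou2af1 and Ralgps2 together made up most of these Foxp3- sums, so the difference is not one of the markers as a class. Ralgps2 read 736 and 391 in CD25hi and CD25lo Foxp3+ cells, against 873 in CD25+ and 1015 in CD25- Foxp3- cells, a gap of 1.19-fold. Of 8 listed plasma cell genes 4 were measured, and all 4 were lower in both Foxp3+ arrays by the 1.5-fold rule. Jchain, which joins secreted IgA and IgM, read 558 and 1021 in CD25hi and CD25lo Foxp3+ cells, against 3092 in CD25+ and 1940 in CD25- Foxp3- cells. Igha read 1302 and 1472 in the Foxp3+ cells, against 5053 in CD25+ and 8511 in CD25- Foxp3- cells. The other plasma cell genes were Mzb1 and Sdc1, and Sdc1 reached the filter on the CD25+ Foxp3- array alone. The sum of the 7 plasma cell genes with a probe set was 1948 and 2579 in CD25hi and CD25lo Foxp3+ cells, against 8455 in CD25+ and 10945 in CD25- Foxp3- cells. Tnfrsf17, a receptor of mature plasma cells, read between 5.62 and 6.17, under the floor on all 4 arrays.

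Of 19 listed dendritic cell markers 18 had such a probe set, 8 were measured and 10 stayed under the filter. Itgax (CD11c) read between 5.00 and 11.0, Zbtb46, a factor of classical dendritic cells, between 11.2 and 23.2, and Flt3 between 10.9 and 20.5. By the 1.5-fold rule Fscn1 was lower and Cd86 and Cd80 were higher with Foxp3, and of the 4 markers at the filter on every array 0 were lower and 1 was higher. The sum over the 18 genes was 1703 and 1788 in CD25hi and CD25lo Foxp3+ cells, against 1654 in CD25+ and 1864 in CD25- Foxp3- cells. Without Cst3 the sum was 759 and 849 in the Foxp3+ cells, against 899.5 in CD25+ and 957 in CD25- Foxp3- cells. The Foxp3 states then no longer overlapped, but the gap was far under 1.5-fold. On each array 6 or 7 of the 18 genes were values set to the floor. Batf3, a factor of a dendritic cell subset and of activated T cells, read 10.1 or less in CD25hi Foxp3+ and CD25- Foxp3- cells, 13.1 in CD25lo Foxp3+ and 75.9 in CD25+ Foxp3- cells.

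Of 24 listed macrophage and monocyte markers 23 had such a probe set and 14 were measured. Cd14 read between 3.96 and 4.82 and Itgam (CD11b) between 6.79 and 9.38, under the floor on every array. Tyrobp and S100a9 were lower with Foxp3 by the 1.5-fold rule and none was higher, and of the 7 markers at the filter on every array 1 was lower. Csf1r, the receptor for macrophage growth factor, read 57.8 and 212 in CD25hi and CD25lo Foxp3+ cells, against 147 in CD25+ and 305 in CD25- Foxp3- cells, so that the Foxp3 states overlapped. Lyz2, lysozyme of myeloid cells, read 27.8 and 113 in the Foxp3+ cells, against 70.6 in CD25+ and 147 in CD25- Foxp3- cells. Csf1r and Lyz2, like the classical chains, were lowest in CD25hi Foxp3+ cells, but highest in CD25- Foxp3- cells. Cybb, part of the phagocyte oxidase, read 412.5 and 1484 in the Foxp3+ cells, against 364 in CD25+ and 238 in CD25- Foxp3- cells. Fcer1g read 15.5 and 21.9 in the Foxp3+ cells, against 294 in CD25+ and 21.5 in CD25- Foxp3- cells. Adgre1 read 13.1 and 22.3 in the Foxp3+ cells, against 45.4 in CD25+ and 21.1 in CD25- Foxp3- cells. Fcer1g and Adgre1 reached the filter on the CD25+ Foxp3- array alone, so a high reading there was built into their choice. Most of the 14 measured markers were highest in CD25- Foxp3- cells. The sum over the 23 genes was 941 and 2630.03 in CD25hi and CD25lo Foxp3+ cells, against 1732 in CD25+ and 1953 in CD25- Foxp3- cells. Cybb made up most of the CD25lo Foxp3+ sum. The median log2 difference of the 14 measured markers from CD25- Foxp3- cells was -1.70 in CD25hi and -0.45 in CD25lo Foxp3+ cells. In CD25+ Foxp3- cells this median was -0.75.

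Markers of lymphoid tissue inducer cells, innate lymphocytes of which some bear CD4 and class II, followed CD25+ Foxp3- cells. All 9 with such a probe set were measured, and among the Foxp3- cells 8 of them read at least 2-fold more with CD25 than without it, Cxcr5 being the exception, beside 12.1% of all measured genes. Kit, Tnfsf4 and Il17a reached the filter on the CD25+ Foxp3- array alone, so a high reading there was built into their choice. Kit read 10.7 in CD25hi Foxp3+ cells and at most the floor in CD25lo Foxp3+ cells, against 399 in CD25+ and 11.7 in CD25- Foxp3- cells. Il1r1 read 42.1 and 40.1 in CD25hi and CD25lo Foxp3+ cells, against 334 in CD25+ and 36.2 in CD25- Foxp3- cells. Ccr6, also on T helper and regulatory T cells, read 1862 and 1913 in the Foxp3+ cells, against 2419 in CD25+ and 245 in CD25- Foxp3- cells. Lta read 336 and 65.7 in CD25hi and CD25lo Foxp3+ cells, against 341 in CD25+ and 120 in CD25- Foxp3- cells. Cxcr5 read 402 and 992 in the Foxp3+ cells, against 335 in CD25+ and 286 in CD25- Foxp3- cells. Compared with CD25+ Foxp3- cells, 6 of the 9 were at least 2-fold lower in CD25hi and 5 in CD25lo Foxp3+ cells. The shares over all measured genes were 6.84% and 9.04%. The sum over the 9 genes was 4173 and 5826 in CD25hi and CD25lo Foxp3+ cells, against 15033 in CD25+ and 3890 in CD25- Foxp3- cells. Id2 made up most of both Foxp3- sums, at 9203 in CD25+ and 2858 in CD25- cells. It read 970 and 1589 in CD25hi and CD25lo Foxp3+ cells. Several of these genes are known in activated T cells too. By the Foxp3 rule Id2 was lower and none was higher.

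Among markers of cells that bear little class II, 7 of 10 measured CD8 T and NK cell markers and all 4 measured red cell markers were lower with Foxp3. None of the red cell markers reached the filter on every array, so their direction was in part built in, and of the 7 CD8 T and NK cell markers that did 5 were lower. Their sums were 888 and 119 in CD25hi Foxp3+ and 1422 and 177 in CD25lo Foxp3+ cells, against 2629 and 504 in CD25+ and 3297 and 861 in CD25- Foxp3- cells. Among the T cell identity genes none of 14 passed in either direction, near the shares of 1.93% and 2.8% over all measured genes. That rule does not show a drop on 1 array. Their sum was 57826 and 60700 in CD25hi and CD25lo Foxp3+ cells, against 43448 in CD25+ and 63288 in CD25- Foxp3- cells. Of the 14 genes 12 read lower in CD25+ than in CD25- Foxp3- cells. The median log2 difference was -0.57, beside -0.01 over all measured genes. The part that B cells, plasma cells, myeloid cells or innate lymphocytes have in the class II readings was not tested.

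**Figure D4:**
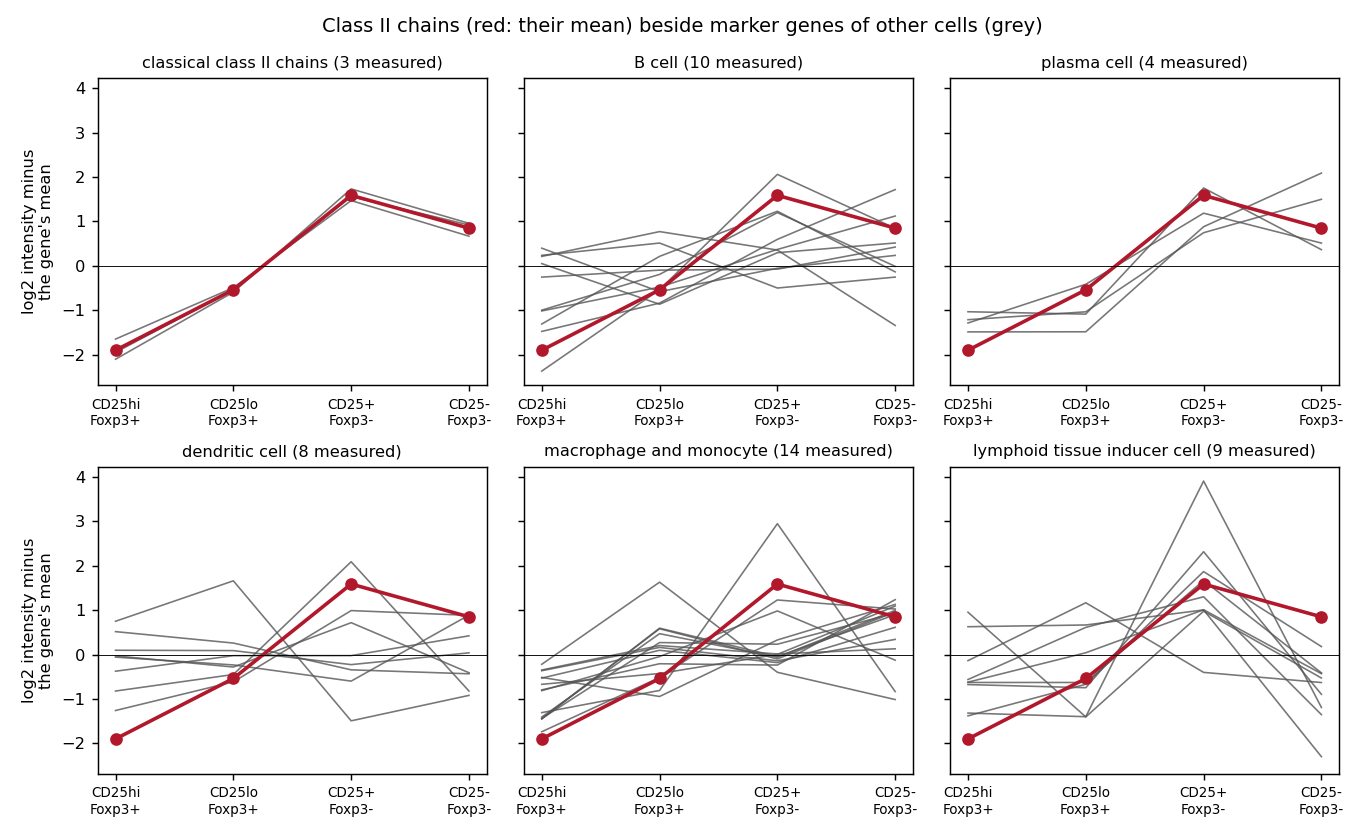
log2 intensity minus the gene's own mean over the 4 arrays, for measured marker genes (grey) of each list named above its panel, with the mean of H2-Aa, H2-Ab1 and H2-Eb1 in red in every panel. The classical chains lie together, between -2.10 and -1.65 in CD25hi Foxp3+ and between 1.47 and 1.73 in CD25+ Foxp3- cells, the 4 plasma cell genes are low in both Foxp3+ arrays, and the markers of the other lists spread on both sides of the red line.

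Likeness to the classical chains was measured as the root mean square distance between log2 profiles over the 4 arrays, each centred on its own mean, among the 736 other genes whose arrays differed by at least 4-fold. H2-Ab1, H2-Aa and H2-Eb1 lay 0.05, 0.14 and 0.17 from the mean profile that they form together, so their nearness is built in. The 10 nearest were Tyrobp at 0.22, Sostdc1 at 0.25, Pou2af1 at 0.33, Dennd3, Ctla2a, Aqp1, Jchain, Fasl, Fscn1 and Sestd1, the last at 0.44. Sostdc1, Dennd3, Aqp1 and Sestd1 stayed under the filter of 32.5 on both Foxp3+ arrays, so their direction was in part built in. Tyrobp, the adaptor chain DAP12 of myeloid and NK receptors, read 14.1 and 32.8 in CD25hi and CD25lo Foxp3+ cells, against 109.8 in CD25+ and 95.4 in CD25- Foxp3- cells. Fasl, the death ligand of activated T and NK cells, read 53.8 and 77.5 in the Foxp3+ cells, against 514 in CD25+ and 461 in CD25- Foxp3- cells. Of the 50 nearest genes 4 were B cell and 3 plasma cell markers, where the 736 held 6 and 4. Dendritic cell, myeloid, red cell, lymphoid tissue inducer and interferon gamma genes had 1 each, the last of these lists through Ifng and the one before through Id2, where the 736 held 3, 9, 4, 7 and 6. CD8 T and NK cell markers had 0 of 7. These counts cover listed genes alone, and most of the 50 were on no list, among them Fasl, Klrc1, Gzmk, Aqp1 and Hemgn. A count of 0 or 1 thus does not show that a cell type has no other gene near. With 4 arrays the measure only describes these libraries. Cd74 lay 1.14 away, with 193 of the 736 nearer, and H2-Ob 2.22 away, with 633 nearer.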

How the data were processed

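The authors deposited 1 intensity per probe set and array, on a linear scale. The sources used here do not name the summarisation, background or scaling method. The RNA was amplified and hybridised to Mouse Genome arrays, per the labels' protocols. The highest column median was 1.04 times the lowest, and the scale was kept.

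Of 45101 probe sets, 34945 had exactly 1 gene in the platform annotation after 64 controls were left out. Of these, 34741 matched the RefSeq table of assembly GRCm38.p6 by Entrez ID. Intensities under the 40th percentile, 10.1, were set to it before log2 was taken. Probe sets whose highest array was under the 60th percentile, 32.5, were left out. A gene was read from its probe set with the highest mean log2 value. Groups came from the sample titles, 1 array each, so no test was made and size rules of 1.5-fold between Foxp3 states and 2-fold between arrays were used. The 1.5-fold rule was tested on simulated data, the 2-fold rule was not. Work was done in Python 3.11.15 with pandas 2.3.3 and numpy 2.4.6.

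The genes and lists were chosen with earlier results of these data known. The text names all 9 genes, up to 6 members of a list past the 1.5-fold rule and up to 6 first on it, and the 10 genes nearest in profile. Others, among them Ctss, Ctsh, Lgmn, Batf3, Cybb, Fcer1g, Cxcr5, Lta, Ralgps2, Klrc1, Gzmk and Hemgn, were chosen after their values were seen. Alternatives changed the scaling, floor, filter, probe set choice and gap.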

Additional observations from a re-analysis of the deposited data

Results flagged for a closer look

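The CD25 difference of the classical chains had opposite signs in the Foxp3 states. CD25hi minus CD25lo Foxp3+ cells gave a log2 difference of -1.51 for H2-Aa, -1.41 for H2-Ab1 and -1.16 for H2-Eb1, and CD25+ minus CD25- Foxp3- cells gave 0.77, 0.64 and 0.80. The first minus the second is -2.28 for H2-Aa, -2.05 for H2-Ab1 and -1.96 for H2-Eb1. For Cd74 the Foxp3 difference had opposite signs, -1.65 in CD25hi Foxp3+ minus CD25+ Foxp3- and 0.70 in CD25lo Foxp3+ minus CD25- Foxp3- cells, with a difference between them of -2.35. With 1 array a group these differences were not tested, and Il2ra differed within each pair of arrays, so the CD25 steps of the Foxp3+ and Foxp3- sorts are not the same.

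A probe set outside the rule, shared by H2-Ob and Gm20506, read 174 and 233 in CD25hi and CD25lo Foxp3+ cells, against 35.5 in CD25+ and 84.1 in CD25- Foxp3- cells, the order of the H2-Ob probe set. Its highest array was 2.76-fold over CD25- Foxp3- cells. Of 3 shared probe sets the others belong to H2-DMb2 and H2-DMb1. The first read 21.6 and 24.2 in CD25hi and CD25lo Foxp3+ cells, against 28.7 in CD25+ and 38.8 in CD25- Foxp3- cells. The last read 12.0 and 21.0 in the Foxp3+ cells, against 37.9 in CD25+ and 30.5 in CD25- Foxp3- cells. Each reached the filter only on the Foxp3- array where it was highest.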

How the results depend on the processing

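The count of 3 class II genes lower with Foxp3 stayed at 3 under both other scalings, both other floors, both other filters, the mean over probe sets and a gap of 2-fold. It was 2 without probe sets ending in _x_at or _s_at, which removes every H2-Aa and passing H2-DMb2 probe set, and 6 of 13 when probe sets were counted. With arrays left out, an alternative chosen after seeing the data, it was 5 without the CD25- Foxp3- array, against 10.7% of all genes. Cd74 and H2-DMb2 joined there. The count was 3 without the CD25hi Foxp3+, the CD25lo Foxp3+ or the CD25+ Foxp3- array, against 6.97%, 3.1% and 6.94% of all genes. The median difference in CD25hi Foxp3+ minus CD25+ Foxp3- cells was -0.94 with no filter on low values, -1.65 with every array at the filter and -0.87 without probe sets ending in _x_at or _s_at, where fewer or more genes enter it. Without those probe sets it was -0.89 in CD25lo Foxp3+ minus CD25+ Foxp3- cells. In CD25hi Foxp3+ minus CD25- Foxp3- cells the median of -0.14 became 0.23 without them and 0.08 with every array at the filter, so its sign is not settled. A median was taken as moved when it shifted by more than the typical spread between probe sets of a gene, 0.21 to 0.36 on the log2 scale. By gene, the mean Foxp3 difference ranged from -2.70 to -2.21 for H2-Aa, from -2.48 to -2.21 for H2-Ab1, from -2.15 to -2.01 for H2-Eb1 and from 1.70 to 1.79 for H2-Ob. H2-Oa alone had both signs, from -0.02 to 0.02. Dim genes such as Ciita and H2-DMb2 are limited by the background. With every array at the filter, 88 of 8499 genes were lower with Foxp3, and the marker lists gave 1 of 6 for B cells, 3 of 3 for plasma cells, 0 of 4 for dendritic cells, 1 of 7 for myeloid cells and 5 of 7 for CD8 T and NK cells, with no red cell marker left. No paired analysis was possible because each group has 1 array.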
